A study of Rattus norvegicus with 15 samples.

Results

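The comparison described here sets RNA recovered with an antibody to hnRNP A2 from untreated oligodendrocytes against RNA recovered with IgG. It uses 6 of the 15 libraries of the series: control hnRNP A2 replicates 2, 3 and 4 and IgG replicates 2, 3 and 4. They were taken by title, with earlier results of these data known. The cells were oligodendrocytes cultured from the forebrain cortex of newborn Sprague-Dawley rats, grown from shaken-off precursors in a defined maturation medium. The control hnRNP A2 libraries carry the treatment label Control. The IgG libraries carry the label Amyloid-B/Control (pool), while their file names hold the mark of amyloid-β alone, and the labels were followed. The background group therefore holds RNA of cells given oligomeric amyloid-β, which the control hnRNP A2 group does not, and antibody and treatment cannot be fully told apart here. The 3 amyloid-β hnRNP A2 libraries served only to estimate the spread between libraries, and the 3 control input libraries, made from total RNA of untreated cells, give the starting level of a gene. Replicates are described as biological in the design text, but the labels do not say how many animals or cultures lie behind a library.

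hnRNP A2 is an RNA-binding protein that shuttles between nucleus and cytoplasm. In oligodendrocytes it is known for binding a short element in certain messenger RNAs, among them that of myelin basic protein, and for packing them into granules that travel along microtubules into the processes, where they are translated. An IgG immunoprecipitation measures what the beads and a non-specific antibody carry along, so that a larger share with hnRNP A2 than with IgG is the usual reading of enrichment. Shares are compared here, not amounts: a gene with a smaller share need not have less RNA.

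The files identify genes by Ensembl identifier only, and none of the 30560 identifiers could be paired with a gene name through the RefSeq table used here. The myelin genes, the gene of hnRNP A2 itself and the markers of oligodendrocytes and of other brain cells were therefore not analysed here. The cell type label was not checked against markers, genes are described by level and behaviour, and no sequence is shown.

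The IgG libraries were much shallower than the hnRNP A2 libraries, and IgG replicate 2 was shallowest by far. Reads assigned to genes numbered 29216021, 31301588 and 31313742 in control hnRNP A2 replicates 2, 3 and 4. In IgG replicates 2, 3 and 4 they numbered 81463, 4096829 and 1895870. The hnRNP A2 library was thus 359 times as deep as the IgG library in pair 2, 7.64 times in pair 3 and 16.5 times in pair 4, where a pair is the hnRNP A2 and the IgG library of the same number.

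**Figure D1:**
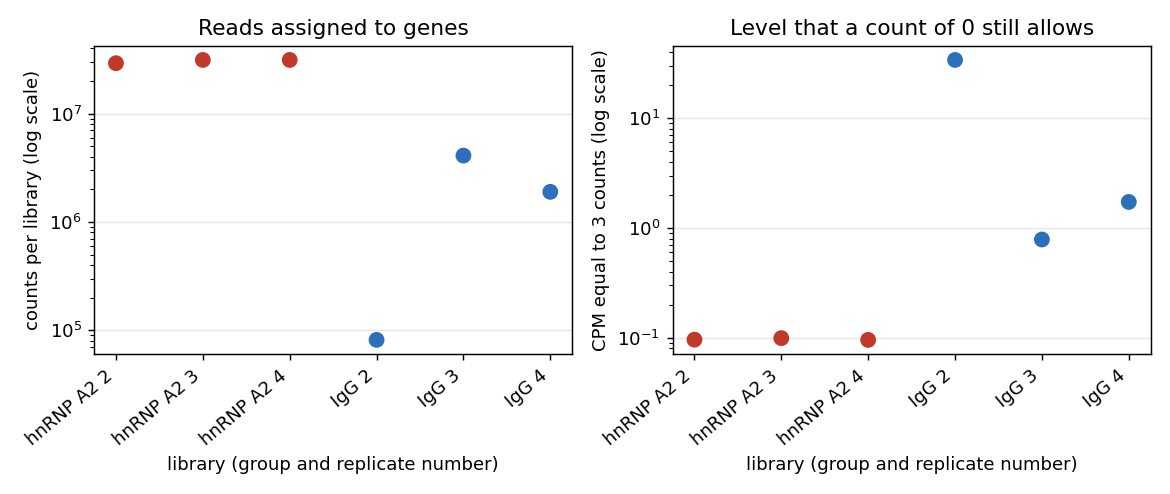
Left, reads assigned to genes in each library; right, the level in CPM that equals 3 counts, the upper limit a count of 0 allows. Both vertical axes are logarithmic, red points are control hnRNP A2 and blue points IgG. IgG replicate 2 lies at 81463 counts and 33.8 CPM, apart from the other 5 libraries.

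A count of 0 means little in IgG replicate 2. It still allows a level of up to 33.8 CPM (counts scaled to a common library size) there, against 0.785 CPM in IgG replicate 3, 1.72 CPM in IgG replicate 4 and 0.0958 to 0.0994 CPM with hnRNP A2. Each such limit is 3 counts on the scaled library size and covers counting error only. Of the 15304 genes tested, 6524 (42.6%) had a count of 0 in IgG replicate 2, against 450 in IgG replicate 3, 1096 in IgG replicate 4 and at most 62 in a control hnRNP A2 library. The median tested gene had 1 count in IgG replicate 2 and 489 to 518 counts in the hnRNP A2 libraries. At its control hnRNP A2 level, a gene had to reach 33.8 CPM for 3 counts to be expected in IgG replicate 2, which 5428 tested genes (35.5%) did. An expectation of 10 counts needed 113 CPM, and 2003 genes (13.1%) reached it.

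At equal depth the hnRNP A2 libraries held somewhat more genes. The number of genes expected in 80000 counts drawn from a library was 9550, 9295 and 9479 in control hnRNP A2 replicates 2, 3 and 4, and 8833, 9198 and 9034 in IgG replicates 2, 3 and 4. The groups did not overlap, with a mean difference of 419.6 genes (2-sided exact permutation test, p = 0.1, the smallest that 3 against 3 allow; adjusted p = 0.2 over 4 measures). The top 10 genes of a library by count held 7.33% ± 1.11 (SD, n = 3) of gene counts with hnRNP A2 and 11.2% ± 4.57 (SD, n = 3) with IgG, where the library values overlapped (exact permutation test, p = 0.3, adjusted p = 0.3). The mean difference of -3.84 percentage points became -1.37 without IgG replicate 2 and -5.87 without IgG replicate 3. In control input this share was 35.1% ± 8.79 (SD, n = 3). Reads aligned to several places made up 14.5% to 21.7% of aligned records with hnRNP A2. In IgG replicates 2, 3 and 4 they made up 75.7%, 25.5% and 54.3%, so among these 3 libraries the shallower had the larger share. The groups did not overlap (hnRNP A2 against IgG, exact permutation test, p = 0.1, adjusted p = 0.2). In control input, whose libraries were deeper than those of IgG, the share was 56.6% ± 10.2 (SD, n = 3). Uniquely aligned reads outside annotated genes took 22.7% ± 2.55 (SD, n = 3) with hnRNP A2 and 20.2% ± 1.82 (SD, n = 3) with IgG. Here the library values overlapped (exact permutation test, p = 0.2, adjusted p = 0.267). Because 3 against 3 allow no p under 0.1, none of these 4 tests could decide whether the groups differed.

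The RNAs favoured by the hnRNP A2 antibody over the background were sought with edgeR's quasi-likelihood test across all genes. Of 15304 genes, 650 had a higher and 379 a lower share in the hnRNP A2 libraries at a Benjamini-Hochberg adjusted p under 0.05. That is 4.25% and 2.48% of the genes tested, 6.72% in all. The changes were moderate: the median log2 fold change was 1.28 for the higher and -1.23 for the lower genes, against 0.07 for all genes tested. At least a 2-fold difference was fitted for 537 of the higher and 277 of the lower genes, and at least 4-fold for 57 and 98. The lower genes thus included more of the large differences although they were fewer.

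**Figure D2:**
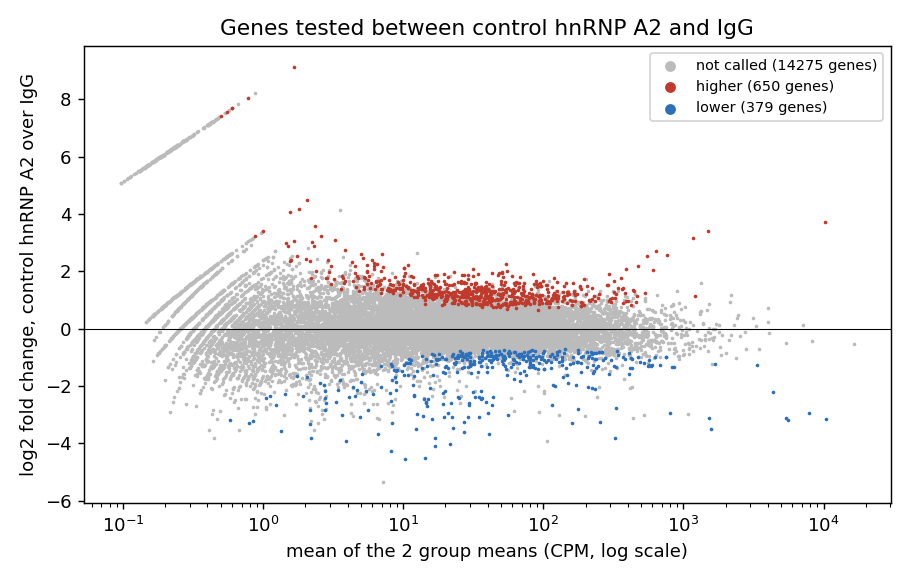
Each point is 1 of the 15304 genes tested; the horizontal axis is the mean of the control hnRNP A2 and IgG means in CPM on a log scale and the vertical axis the fitted log2 fold change of control hnRNP A2 over IgG. The 650 higher genes are red and the 379 lower genes blue; the slanted strings at low levels are genes with 0 or few counts in the IgG libraries, whose fitted fold changes depend on edgeR's prior count.

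The count of calls differed strongly between designs of the fit. With the replicate number as a block, edgeR called 4854 genes, 31.7% of those tested, 2655 higher and 2199 lower. All 650 higher and all 379 lower genes were among them, in the same direction. The blocked genes had smaller differences, with median log2 fold changes of 0.91 and -0.84, and 1082 of the higher and 776 of the lower ones reached 2-fold. In the opposite direction, a fit of the 6 libraries alone, without the amyloid-β immunoprecipitations, called 223 of 13976 genes (1.6%), 107 higher and 116 lower. Of these, 107 and 113 were among the 650 and 379.

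Single libraries also decided the count without the block. Dropping IgG replicate 4 left 0 edgeR calls, with 2514 genes at an unadjusted p under 0.05. Dropping control hnRNP A2 replicate 3 also left 0, with 3211 such genes, and dropping replicate 4 of that group left 2. The count was 551 when control hnRNP A2 replicate 2 was dropped. It was 517 or 232 when the amyloid-β library numbered 3 or 4 was dropped, and 1943 when IgG replicate 3 was. Without IgG replicate 2, the shallowest library, edgeR called 1318, and 926 of the 1029 genes were among them. In the 6 libraries alone, leaving out IgG replicate 2 or IgG replicate 4 ended every edgeR call, while 3752 and 1739 genes had an unadjusted p under 0.05. No other tool was run with a library left out. With the block, 3331 genes were called without IgG replicate 4, 5172 without IgG replicate 3 and 4970 without IgG replicate 2. The 1029 genes kept their sign in every 9-library fit that left out a single library, but they had been picked with all libraries included.

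**Figure D3:**
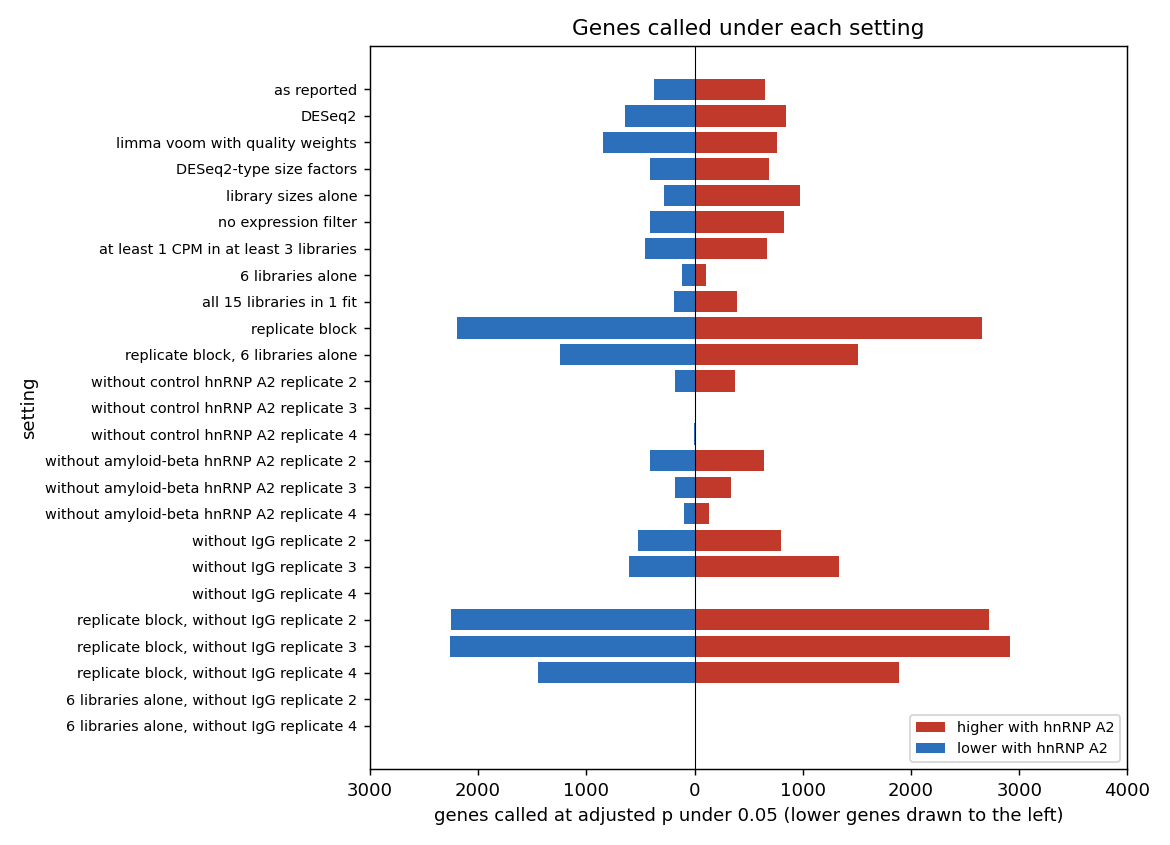
Bars give the genes called at an adjusted p under 0.05 under each setting, higher ones in red to the right and lower ones in blue to the left. The total runs from 0 without IgG replicate 4 to 5172 with the replicate block and without IgG replicate 3.

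The balance of higher and lower genes also moved with the scaling. With TMM factors 63.2% of the called genes were higher. With library sizes alone it was 77.2%, 970 higher against 286 lower, and the median log2 fold change of all genes tested shifted from 0.07 to 0.18. limma's voom with sample quality weights, which changes the model and the weight of each library at once, gave 762 higher and 847 lower genes.

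Calls were rare among weakly expressed genes. Under 2 CPM, taken as the mean of the 2 group means, 16 of 2995 genes were higher and 10 lower, and 99.97% of those genes had a count of 0 in IgG replicate 2. Between 10 and 50 CPM there were 311 higher and 149 lower among 4939 genes. At 200 CPM or more there were 45 higher and 64 lower among 1014, so that only in this class were lower genes the more numerous. The median standard error of a log2 fold change fell from 0.86 under 2 CPM to 0.29 at 10 to 50 CPM and 0.27 at 200 CPM or more. A gene that was not called is not shown to be equal. Of all genes tested, called ones included, 4397 (28.7%) had both bounds of the 95% confidence interval less than 2-fold from no change. With the block, 6681 (43.7%) did.

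Called genes with a count of 0 in the shallowest library numbered 250 of 1029 (24.3%), against 42.6% of all genes tested. Of the 650 higher genes, 218 had 0 counts in IgG replicate 2, 230 had 1 or 2, 167 had 3 to 9 and 35 had at least 10. Of the 379 lower genes, 32 had 0 counts, 70 had 1 or 2, 141 had 3 to 9 and 136 had at least 10. Fewer than 3 counts were thus found for 68.9% of the higher and 26.9% of the lower genes, against 66.4% of all genes tested, so the higher genes lay near the background share.

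All 3 hnRNP A2 values lay above all 3 IgG values for 629 of the 650 higher genes, and below them for 320 of the 379 lower genes. Over all genes tested, the groups did not overlap for 3202 genes (20.9%) in the higher direction and 1258 (8.22%) in the lower, 29.1% together. The 2 directions are not on an equal footing, because a gene at 0 in IgG replicate 2 cannot have all its IgG values above those of hnRNP A2. Of the 3202, 1693 had a count of 0 there, and 42.6% of all genes tested did.

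The called genes made up a small part of each library. The 650 higher genes held 7.84%, 8.68% and 9.19% of gene counts in control hnRNP A2 replicates 2, 3 and 4, and 2.29%, 3.07% and 2.12% in IgG replicates 2, 3 and 4. In the control input libraries they held 5.44% to 7.32%, closer to the hnRNP A2 libraries than to IgG. The 379 lower genes held 3.58%, 2.74% and 3.59% of hnRNP A2 counts and 18.5%, 6.21% and 12.4% of IgG counts in the same order. In control input they held 6.46% to 14.6%, above each hnRNP A2 library and overlapping IgG. The genes were chosen by this difference, so these shares describe it and do not test it. Their share in IgG was largest in the shallowest library and smallest in the deepest.

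A few abundant genes carried much of the lower side. Among the 89 genes with a mean of the 2 groups of at least 1000 CPM, 4 were higher and 9 lower, against 4.25% and 2.48% of all genes tested. The 9 lower genes had log2 fold changes from -3.49 to -1.23, and each had at least 219 counts in IgG replicate 2, so counting error was small even there. Together they took 12.8% of gene counts in IgG replicate 2, 2.32% in IgG replicate 3 and 6.80% in IgG replicate 4. In control hnRNP A2 replicates 2, 3 and 4 they took 1.21%, 0.839% and 1.36%. In control input they took 4.92%, 5.98% and 12.1%. The groups did not overlap for 7 of the 9, as for 320 of the 379 lower genes and, in that direction, 8.22% of all genes tested. All 9 were called with the replicate block, as were all 379 lower genes, but 3 in the 6 libraries alone, as were 113 of the 379. Their share in IgG followed the share of reads aligned to several places and the inverse of depth across the 3 libraries, and the part of either in the result was not tested.

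The 4 higher genes at that level behaved more evenly. Together they took 1.97%, 2.61% and 3.17% of gene counts in control hnRNP A2 replicates 2, 3 and 4 and 0.231%, 0.340% and 0.205% in IgG replicates 2, 3 and 4. In control input they took 2.85%, 1.99% and 2.03%, a range that overlaps the hnRNP A2 values and lies well above IgG. ENSRNOG00000034234, described below, was 1 of the 4. It alone took a mean of 1.93% of gene counts over the control hnRNP A2 libraries, most of the sum. ENSRNOG00000030700, also described below, was another of the 4, with a mean of 0.274%. All 4 had groups that did not overlap, as did 629 of the 650 higher genes and, in that direction, 20.9% of all genes tested. All 4 were called with the block, as were all 650, and 3 in the 6 libraries alone, as were 107 of the 650. Over all genes, 31.7% were called with the block and 1.6% in the 6 libraries, in either direction.

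By the rule for named genes, 568 higher and 310 lower genes qualified: those called, with groups that do not overlap and a mean of at least 10 CPM in the higher group. Among these, the largest fold change in each direction is given with its runner-up. ENSRNOG00000034234 was the most abundant tested gene by its mean over the 3 control hnRNP A2 libraries, though not the top gene of replicate 3, and stood at rank 58 by its mean in IgG. It had 14042, 19380 and 24222 CPM in control hnRNP A2 replicates 2, 3 and 4, and 1172, 2064 and 1079 CPM in IgG replicates 2, 3 and 4. Every hnRNP A2 library lay above every IgG library, as the rule requires. Its counts in IgG were 104, 7891 and 1876, so even the shallow library measured it. Within pairs 2, 3 and 4 the ratio was 11.99 (95% interval 9.89 to 14.7, exact binomial, counting error only), 9.39 (9.18 to 9.60) and 22.5 (21.5 to 23.5). The log2 fold change was 3.73 (SE 0.44, edgeR adjusted p = 0.0109), with a 95% confidence interval of 2.77 to 4.69. On a scale common to all 15 libraries it had 23428, 12256 and 17316 CPM in control input replicates 2, 3 and 4 and 12092, 16731 and 21037 CPM in the hnRNP A2 replicates of those numbers, and the ranges overlapped.

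ENSRNOG00000030700 had 1633, 3296 and 3300 CPM with hnRNP A2 and 169, 284 and 285 CPM with IgG in replicates 2, 3 and 4. The groups did not overlap, again as the rule requires, and the ratio was alike in the 3 pairs. It was 9.66 (5.86 to 17.3) in pair 2, where IgG had 15 counts, 11.6 (10.9 to 12.3) in pair 3 and 11.6 (10.6 to 12.7) in pair 4. The fitted log2 fold change was 3.42 (SE 0.44, edgeR adjusted p = 0.0114). In control input it had 7320, 3902 and 4760 CPM on the common scale, above each of the hnRNP A2 values of 1406, 2846 and 2867 CPM on that scale.

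ENSRNOG00000058179 had the largest fold change in the lower direction among the genes that qualified. It had 0.706, 0.232 and 0.894 CPM with hnRNP A2 and 33.8, 2.88 and 23.0 CPM with IgG. Each IgG value lay above each hnRNP A2 value, as the rule requires, but IgG replicate 2 had only 3 counts. IgG exceeded hnRNP A2 47.9 times in pair 2 (9.18 to 159), 12.4 times in pair 3 (4.39 to 37.7) and 25.7 times in pair 4 (15.5 to 43.3). The log2 fold change was -4.55 (SE 0.92, edgeR adjusted p = 0.0241).

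ENSRNOG00000051703 had 1.64, 0.133 and 1.92 CPM with hnRNP A2 and 22.5, 4.19 and 55.8 CPM with IgG. Replicate 3 was the lowest library in both groups. Its log2 fold change was -4.51 (SE 1.11, edgeR adjusted p = 0.0388), and the IgG counts were 2, 16 and 97. Without IgG replicate 4 the log2 fold change was -2.26 (edgeR adjusted p = 0.450), and it also missed the threshold without IgG replicate 2 (edgeR adjusted p = 0.0525). Dropping control hnRNP A2 replicate 2 or amyloid-β hnRNP A2 replicate 4 ended its call too (edgeR adjusted p = 0.0571 and 0.0638).

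**Figure D4:**
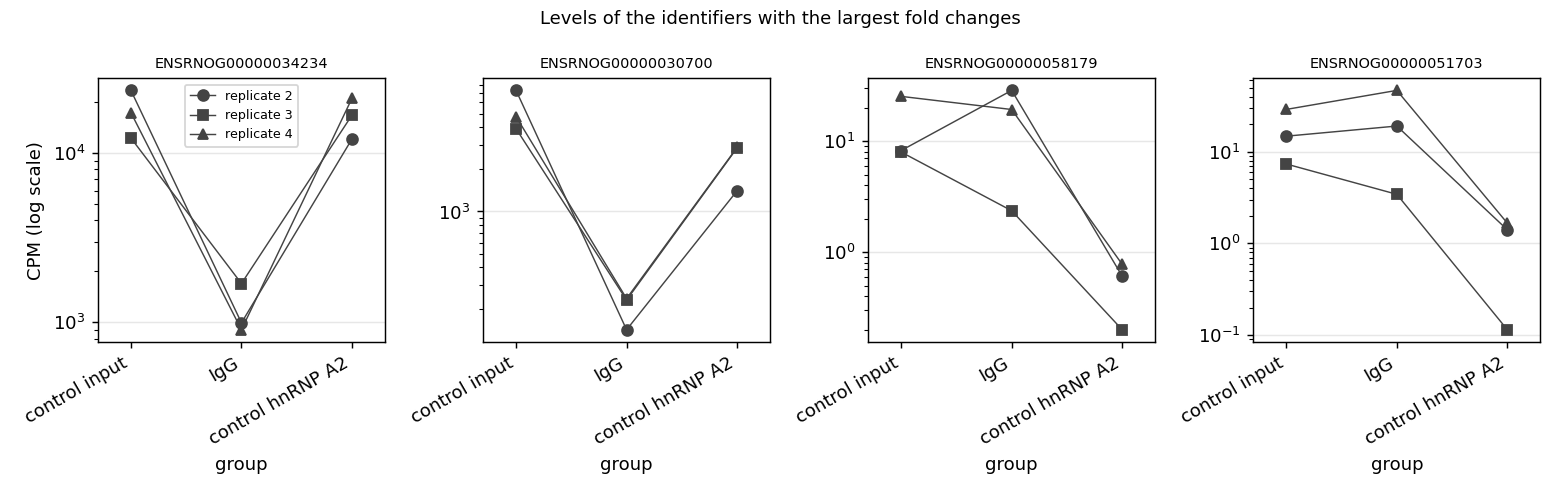
CPM on a log axis of the 4 identifiers in control input, IgG and control hnRNP A2, scaled over all 15 libraries; each line joins the libraries of 1 replicate number. The higher pair dips in IgG and has similar or higher levels in input, and the lower pair falls from input and IgG to hnRNP A2.

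All 4 of these calls were lost without IgG replicate 4, control hnRNP A2 replicate 3 or control hnRNP A2 replicate 4, as was nearly every other call. ENSRNOG00000034234 then had an edgeR adjusted p of 0.1003, 0.0585 and 0.0510, with log2 fold changes of 3.58, 3.73 and 3.54. ENSRNOG00000030700 had edgeR adjusted p-values of 0.106, 0.0585 and 0.0510 in the same order. ENSRNOG00000058179 had a log2 fold change of -3.38 (edgeR adjusted p = 0.241) without IgG replicate 4. With the replicate block all 4 were called in each fit that left out an IgG library. The amyloid-β hnRNP A2 libraries, set against the same IgG libraries, gave ENSRNOG00000034234 a log2 fold change of 3.86 (SE 0.44) and ENSRNOG00000030700 one of 3.68 (SE 0.45). The lower pair had -4.54 (SE 0.92) and -4.55 (SE 1.11). The IgG libraries are shared, so these values are not independent of the control ones.

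How far the 3 pairs behaved alike was described on 811 genes. These had at least 200 CPM in control input, a level that uses none of the 6 libraries, and at least 1 count in each of them, as 811 of 816 such genes did. The log2 ratio of hnRNP A2 over IgG had an SD across genes of 1.05 in pair 2, 0.67 in pair 3 and 0.93 in pair 4. Its median was 0.36 in pair 2, -0.04 in pair 3 and -0.10 in pair 4. At least 2-fold higher with hnRNP A2 were 194 genes in pair 2, 36 in pair 3 and 94 in pair 4, and at least 2-fold lower were 55, 31 and 93. Pair 3, with the deepest IgG library, thus had the fewest large ratios in both directions.

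The pairs share no library, and their ratios ran in the same direction for many of these genes. Across the 811 genes the ratios of pairs 3 and 4 had a Pearson correlation of 0.79 (Spearman 0.76), those of pairs 2 and 4 had 0.77 (0.72) and those of pairs 2 and 3 had 0.59 (0.50). These are descriptions across genes, which are not independent replicates. All 3 ratios were above 1 for 270 genes and below 1 for 194, 57.2% together. All 3 were at least 2-fold higher for 27 genes and at least 2-fold lower for 18. Of the 816 genes, 49 were called higher and 31 lower, 9.80%, against 6.72% of all genes tested.

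**Figure D5:**
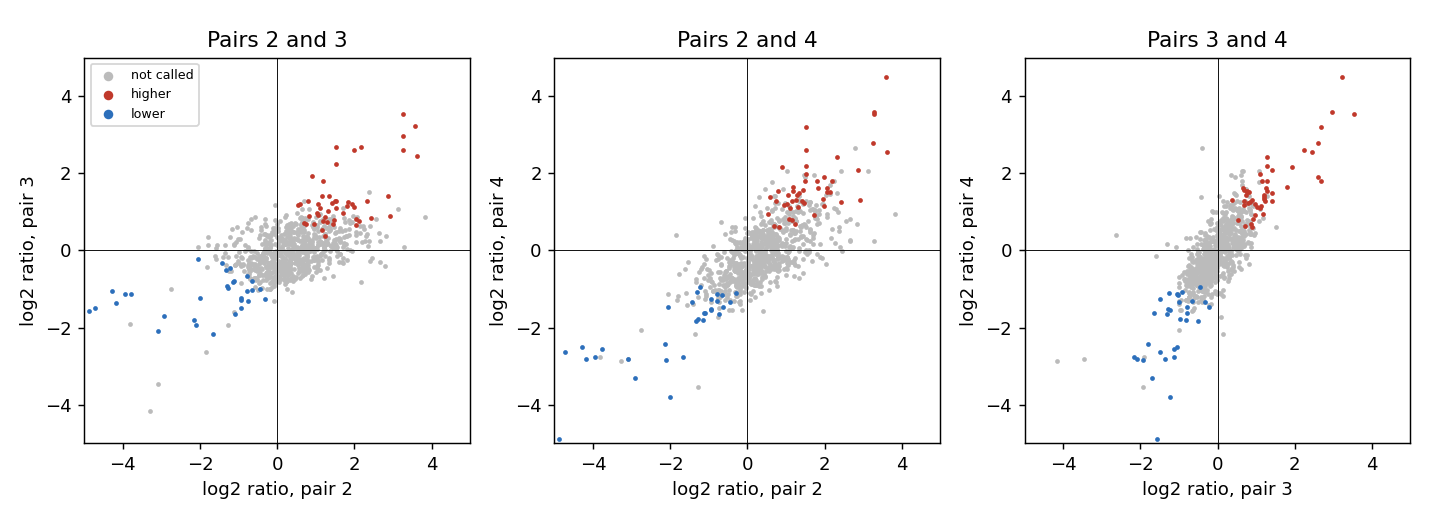
Log2 ratios of control hnRNP A2 over IgG within same-numbered pairs, 1 pair against another, for 811 genes with at least 200 CPM in control input. Genes called higher are red and lower blue. They were called from these same libraries, so their place toward the corners of agreement follows from that choice. The cloud is widest along pair 2, which holds the shallowest IgG library.

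Agreement between pairs was smaller at lower levels. Pairs 3 and 4 lay on the same side for 80.8% of genes at 200 CPM or more in control input, 78.5% at 50 to 200 CPM and 77.1% at 10 to 50 CPM, among genes counted in all 6 libraries. All 3 pairs did so for 57.2%, 54.7% and 51.3%. In those classes 99.4%, 94.0% and 74.4% of genes were counted in all 6 libraries, and below them 34.8% or fewer, so lower levels are not compared.

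The IgG libraries also differed more among themselves than the hnRNP A2 libraries did. Over the same 811 genes the biological coefficient of variation, which leaves out counting noise, was 24.9% among the 3 control hnRNP A2 libraries and 39.3% among the 3 IgG libraries. Between IgG libraries it was 50.9% for replicates 2 and 3, 37.0% for replicates 2 and 4 and 29.98% for replicates 3 and 4. Between hnRNP A2 libraries it was 31.3%, 23.6% and 19.4% for the same numbers, in the same order. Log2 levels of control hnRNP A2 replicate 4 correlated with those of IgG replicate 3 at 0.92, IgG replicate 4 at 0.81 and IgG replicate 2 at 0.70 (Pearson, across 811 genes). IgG replicate 3 correlated at 0.87 and 0.90 with control hnRNP A2 replicates 2 and 3, and at 0.91 with IgG replicate 4. With IgG replicate 2 it correlated at 0.75, lower than with any control hnRNP A2 library.

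Almost no gene with at least 2 CPM in each control hnRNP A2 library was absent from IgG. Of 11597 such genes, a single one had 0 counts in all 3 IgG libraries. It had 2.44, 4.27 and 3.19 CPM in control hnRNP A2 replicates 2, 3 and 4, and was at least 6.22-fold higher, measured against 3 counts over the summed IgG libraries, which equal 0.531 CPM. That limit covers counting error only. The gene was also called higher, but it was picked for its 0 counts in IgG, so the call is no separate support. Its identifier is not printed because it has no name. In the other direction, 25 genes had at least 3 counts over the IgG libraries and 0 in all control hnRNP A2 libraries, with at most 9 counts each. Of the 11597 genes at 2 CPM or more in each hnRNP A2 library, 3210 were at 0 in IgG replicate 2. In IgG replicate 3 it was 4 and in IgG replicate 4 it was 66. Among the 15304 genes tested, 6524 were at 0 in IgG replicate 2.

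The higher and lower genes started from similar levels in the cells. Their median level in control input was 28.5 CPM for the higher and 27.2 CPM for the lower genes, against 14.2 CPM for genes not called, on the scale common to all 15 libraries. On that scale the higher genes had medians of 41.6 CPM with hnRNP A2 and 15.6 CPM with IgG, so input lay between them. The lower genes had medians of 24.6 CPM with hnRNP A2 and 51.5 CPM with IgG, and their median input was near the hnRNP A2 level. Their summed share of gene counts lay otherwise. It was 6.46% to 14.6% in control input, above each control hnRNP A2 library and overlapping IgG. These medians and shares are over genes chosen by the comparison with IgG and carry no test. Of the 100 most abundant genes of each group, 72 were shared. In the hnRNP A2 list 8 were called higher and 7 lower, and in the IgG list 1 was called higher and 13 lower, against 4.25% higher and 2.48% lower among all genes tested. A list chosen by its level in 1 group favours calls toward that group, so nothing is read from these counts.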

How the data were processed

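The deposited files hold raw read counts per Ensembl identifier, as the authors left them before any normalization. The submitters' processing notes name STAR 2.7.1, HTSeq, R 4.2.2 and DESeq2 without saying what each did. How reads were assigned to genes (build, annotation, strandedness) is not given in the sources used here, which leaves counts of overlapping genes, antisense genes and close copies uncertain. The last 5 rows of each file name no gene. With 65.5% to 69.1% of control hnRNP A2 records and 68.2% to 91.4% of IgG records, they were left out of sizes and tests.

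Here edgeR 4.0.16 in R 4.3.3 fitted control hnRNP A2, amyloid-β hnRNP A2 and IgG together (9 libraries; TMM, default filter, quasi-likelihood F test, Benjamini-Hochberg over all genes tested), without a replicate term; this counts same-numbered libraries of the treatments as independent. CPM are counts scaled with TMM factors. An SE is the log2 fold change over the square root of F. The script was tested on simulated counts with the same spread in every library, which the real IgG and hnRNP A2 libraries did not have. That checks the code and not the calls reported here. A chi-square comparison of libraries within each of these groups found no duplicates.

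The named genes are the largest fold changes past the threshold with groups that do not overlap and at least 10 CPM in the higher group. The rule took 10 per direction and the members of gene lists, but without names 2 identifiers per direction are printed and the lists were not used. The libraries and lists were chosen with earlier results of these data known.

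The replicate numbers were taken to pair the libraries. Deviations from the group means correlated at 0.20, 0.23 and 0.12 in pairs 2, 3 and 4, against -0.24 to 0.10 between other numbers. Deviations within a group cancel out, so these values are not independent of each other, and the pairing was not tested. Results were recomputed with DESeq2 1.42.0, with voom and sample quality weights in limma 3.58.1, and with other scalings, filters, library sets, the block and each library left out.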

Additional observations from a re-analysis of the deposited data

How the results depend on the processing

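The number of genes called was 1029, 650 higher and 379 lower. Leaving out each of the 9 libraries gave 0 to 1943 genes, 0 to 1333 higher and 0 to 610 lower. With the replicate block there were 4854, 2655 and 2199. With the block in the 6 libraries alone there were 2753, 1511 and 1242. Adding the block while dropping IgG replicate 2 gave 4970, 2719 and 2251. Dropping IgG replicate 3 in that blocked fit gave 5172, 2916 and 2256, and dropping IgG replicate 4 gave 3331, 1886 and 1445. The 6 libraries alone gave 223, 107 and 116, and 0 in each direction without IgG replicate 2 or without IgG replicate 4. All 15 libraries in 1 fit gave 583, 394 and 189, voom with sample quality weights gave 1609, 762 and 847, and DESeq2 gave 1491, 844 and 647. With library sizes alone the split was 970 and 286. Testing against a minimum log2 fold change of 1 gave 0 genes in edgeR, with 752 at an unadjusted p under 0.05. DESeq2-type size factors and both other filters kept each count within 1.5 times. The causes of these changes were not tested.

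The 4 named genes kept their direction under every alternative run. So did the differences in 2 library measures: that in the share of the 10 most abundant genes ran from -5.87 percentage points without IgG replicate 3 to -1.37 without IgG replicate 2, and that in genes at 80000 counts from 325.2 to 507.7. The other library measures were not recomputed. Genes at 0 in all IgG libraries numbered 0 at a minimum of 5 CPM and 5 at a minimum of 1 CPM, against 1. Alternatives on gene lists and on the share of mitochondrial genes were not run, because no identifier had a name. Depth in IgG replicate 2 limits what can be said of genes under 33.8 CPM there. The blocked fits that dropped IgG replicate 3 or 4, and the fits of the 6 libraries that dropped an IgG library, were chosen after seeing the data.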
